A study of Mus musculus with 15 samples.

Results

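Mouse embryonic fibroblasts (MEFs) homozygous for the p53 change N236S were compared with MEFs carrying wild-type p53, both from generation 1 (G1) of mice bred without telomerase. N236S puts serine in place of asparagine at residue 236 of p53. The G1TM group had the genotype mTR-/- Wrn-/- p53 N236S/N236S and the G1DM group the genotype mTR-/- Wrn-/- p53WT, with 2 libraries each. Neither group therefore had mTR (Terc, the RNA template of telomerase) or Wrn, the helicase lost in Werner syndrome. The cells came from mouse embryos at e13.5 and were grown in DMEM with 10% serum at 37 °C, 5% CO2 and 3% O2. PolyA RNA was sequenced. The labels do not say whether the 2 libraries of a group came from separate embryos. The p-values measure the spread between libraries, part of which may be technical. The 2 G1DM libraries differed in Y-linked and Xist RNA, as given below, so they did not come from the same embryo. Wild-type and p53S control MEFs, which the design text names, were not analysed here. The comparison covered every gene with at least 1 FPKM (fragments per kilobase of gene, scaled to the depth of the library) in at least 2 of the 4 G1 libraries, which was 11908 of the 54495 genes listed.

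p53 is a transcription factor that binds a paired decamer in the DNA of its target genes. Cdkn1a, one of these targets, encodes a cyclin-dependent kinase inhibitor that keeps the retinoblastoma-family proteins unphosphorylated. In that state some members of the family join the DREAM complex. It holds down S phase genes through E2F sites and mitotic genes through the cell cycle genes homology region (CHR). When the complex is taken apart, the same core subunits bind B-Myb (Mybl2) and Foxm1 as the MMB complex, which raises mitotic genes. The series title names DREAM/MMB and telomere DNA replication as its subject.

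The libraries were not equally alike before any gene was tested. The 2 G1TM libraries were close to each other (Pearson r of log2(FPKM + 1) across the tested genes 0.984), with 1.03% of genes differing between them by over 1 log2 unit. The 2 G1DM libraries were further apart (r = 0.952), with 4.44% of genes differing by as much. G1DM replicate 1 stood away from the rest. It expressed Y-linked genes (summed level 15.0 FPKM) with Xist at 0.00475 FPKM, whereas the G1TM libraries had 26.9 and 18.1 FPKM of Xist, G1DM replicate 2 had 28.6 FPKM, and the Y-linked sum was 0 in these 3. The mean of the G1TM libraries differed by over 1 log2 unit from G1DM replicate 1 in 986 genes (8.28%) and from G1DM replicate 2 in 509 genes (4.27%). Group values are therefore given below with the difference from each G1DM library where the result turns on it. Reads recovered from the FPKM values totalled 22803722 and 29571111 in G1TM and 22391505 and 22604943 in G1DM.

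Differences were tested with limma on log2(FPKM + 1), with the spread between libraries shared over the 15 libraries and 6 groups of the series, and genes with a Benjamini-Hochberg adjusted p under 0.05 were called. In G1TM against G1DM, 195 genes were called (1.64% of those tested), of which 73 were higher (0.613%) and 122 lower (1.02%). The called rises ran from 0.75 to 2.85 log2 units with a median of 1.15. The called falls ran from 0.70 to 4.25 log2 units with a median of 1.49. All 195 called genes had both G1TM libraries beyond both G1DM libraries, as did 28.4% of all tested genes on the higher side and 22.2% on the lower side. The median difference over all genes was 0.04 log2 units, so the lists below are read against a background near 0. Their counts of calls are read against the shares of 0.613% higher and 1.02% lower. An unadjusted p under 0.05 was reached by 809 genes on the higher side and 779 on the lower. For a single gene tested alone, 2 libraries against 2 allow no two-sided exact permutation p below 0.333.

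**Figure D1:**
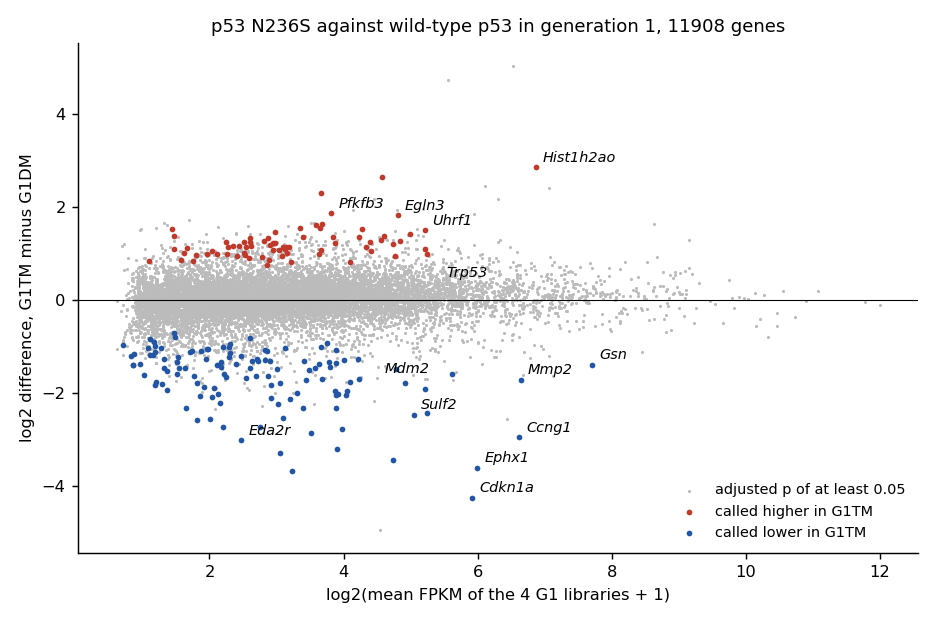
Log2 difference of G1TM minus G1DM (vertical axis, on the log2(FPKM + 1) scale) against log2 of the mean FPKM of the 4 G1 libraries plus 1 (horizontal axis) for each of the 11908 genes tested; red points are the 73 genes called higher in G1TM, blue points the 122 called lower, grey points the rest. The called falls reach 4.25 log2 units (Cdkn1a) and the called rises 2.85 (Hist1h2ao), while Trp53 and Mdm2 are among the genes not called.

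The targeted locus and the 2 genes removed from both groups were read first. Trp53 itself had 42.0 and 53.8 FPKM in G1TM and 34.3 and 38.6 FPKM in G1DM, a difference of 0.38 ± 0.35 log2 units (SE) that did not pass the test (adjusted p = 0.774). Its level says nothing of the residue change, which a gene count cannot see. Wrn had 0.466 and 0.275 FPKM in G1TM and 0.387 and 0.425 FPKM in G1DM, below the filter, and Terc, whose RNA carries no polyA tail, was listed at 0 in all 4 libraries.

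Genes that p53 activates were among the largest falls. Cdkn1a, the inhibitor of cyclin-dependent kinases, had 4.22 and 5.90 FPKM in G1TM and 111 and 116 FPKM in G1DM, a fall of 4.25 ± 0.54 log2 units (adjusted p = 0.00177). Both G1TM libraries lay far below both G1DM libraries, and also below the 86.2 to 216 FPKM of the 5 DM libraries of generations 3 and 5. Ccng1 (cyclin G1) is a negative regulator in the p53 pathway. It had 23.0 and 19.3 FPKM in G1TM and 142 and 204 FPKM in G1DM (-2.95 ± 0.36 log2 units, adjusted p = 0.00156). These 2 genes have in common a p53 element close to a listed transcription start, and such promoters are shown for that reason. Each runs from 250 bases before to 50 bases after the start. The window was picked because it holds the element, so the start shown need not be the main start of the gene. The sequences are RefSeq's for GRCm38.p6 on the strand of the gene, with the 20 bases of the element in capitals. The element lies 51 bases before the start shown for Cdkn1a and 195 bases before that shown for Ccng1, with 1 mismatch to the consensus in each.
Cdkn1a, chr17:29090729-29091028, plus strand: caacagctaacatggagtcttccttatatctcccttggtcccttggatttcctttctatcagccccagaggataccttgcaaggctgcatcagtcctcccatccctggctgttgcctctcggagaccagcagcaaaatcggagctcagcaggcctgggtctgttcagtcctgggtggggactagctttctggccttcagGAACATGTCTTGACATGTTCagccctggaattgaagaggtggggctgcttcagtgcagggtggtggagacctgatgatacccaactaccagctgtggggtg
Ccng1, chr11:40755237-40755536, minus strand: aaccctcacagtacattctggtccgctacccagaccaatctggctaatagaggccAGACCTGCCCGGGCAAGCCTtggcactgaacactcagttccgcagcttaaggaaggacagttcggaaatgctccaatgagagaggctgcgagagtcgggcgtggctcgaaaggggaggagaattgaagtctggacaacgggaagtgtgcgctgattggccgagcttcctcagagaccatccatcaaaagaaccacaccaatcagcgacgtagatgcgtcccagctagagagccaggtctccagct

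Across the list of 55 p53-activated genes, 51 were tested, 18 were called lower and 0 higher, against backgrounds of 1.02% and 0.613%. The list's median difference was -1.11 log2 units against 0.04 for all genes. Unlike most groups below it was alike against either wild-type library, with medians of -0.995 against G1DM replicate 1 and -1.06 against replicate 2. The number called lower was 12 without G1DM replicate 1, 18 without replicate 2, and 11 without either G1TM library. Ephx1, the microsomal epoxide hydrolase, had 9.56 and 7.59 FPKM in G1TM and 133 and 101 FPKM in G1DM (-3.61 ± 0.33, adjusted p = 0.000104). Trp53inp1, which promotes autophagy and cell death, had 0.674 and 0.312 FPKM in G1TM and 17.7 and 10.4 FPKM in G1DM, and Perp, a membrane protein of desmosomes, had 2.17 and 1.26 FPKM in G1TM and 14.8 and 37.3 FPKM in G1DM. None of these genes overlapped between the groups, which held for every called gene. The call of Trp53inp1 was lost without G1DM replicate 1, that of Perp without G1DM replicate 2, and both without either G1TM library. Not every target passed the test: Mdm2, the ubiquitin ligase that degrades p53, had 9.90 and 9.04 FPKM in G1TM and 25.1 and 42.6 FPKM in G1DM, a difference of -1.69 ± 0.45 log2 units with an adjusted p of 0.0755.

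Genes of mitosis were the list with the most called rises. Of 63 members of the mitotic spindle, kinetochore and cytokinesis list, all tested, 14 were called higher and 0 lower, with a median difference of 1.12 log2 units. The mean log2(FPKM + 1) of the 63 was 3.88 and 3.80 in G1TM and 2.43 and 3.13 in G1DM, so the rise was larger against replicate 1 (median 1.48) than against replicate 2 (median 0.76). Both G1TM libraries were above both G1DM libraries for 60 of the 63, where 28.4% of all genes showed that order. In bulk RNA, more dividing cells and more RNA per dividing cell cannot be told apart, and the same holds for every list and cell type here. The number of calls was 0 without G1DM replicate 1 and 27 without G1DM replicate 2, and 1 and 0 without G1TM replicates 1 and 2.

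Pttg1 is securin, which blocks the separation of sister chromatids until anaphase. It had 13.46 and 14.9 FPKM in G1TM and 4.01 and 4.39 FPKM in G1DM, a rise of 1.54 ± 0.23 log2 units (adjusted p = 0.00445). Its libraries were tight within each group and far apart between them. Bub1b, a kinase-like protein of the spindle checkpoint, had 32.6 and 35.3 FPKM in G1TM and 10.4 and 14.6 FPKM in G1DM (1.39 ± 0.26, adjusted p = 0.0217). Aurkb, the kinase of the chromosomal passenger complex, had 19.2 and 20.1 FPKM in G1TM and 5.83 and 8.57 FPKM in G1DM (1.35 ± 0.25, adjusted p = 0.0199). For both genes G1DM replicate 2 was the nearer of the wild-type libraries but still lay below G1TM. Pimreg, a PICALM-interacting mitotic regulator, had 26.0 and 29.4 FPKM in G1TM and 7.57 and 10.7 FPKM in G1DM (1.52 ± 0.29, adjusted p = 0.0217). Racgap1 and Cdca3 were called members chosen after their values were seen, for their promoters. Racgap1, part of the centralspindlin complex that drives cytokinesis, had 26.8 and 29.4 FPKM in G1TM and 8.54 and 15.0 FPKM in G1DM, and Cdca3, a trigger of mitotic entry, had 25.6 and 27.6 FPKM in G1TM and 9.66 and 13.7 FPKM in G1DM.

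Promoters of 3 called mitotic genes are shown because each holds both a CHR (TTTGAA) and a CCAAT box (CCAAT), the pair of motifs through which DREAM and the CCAAT-binding factor NF-Y are known to act on such genes. They are RefSeq sequences for GRCm38.p6 over the same window, on the strand of the gene, with both motifs in capitals in either orientation (a CCAAT box on the other strand reads ATTGG). The CHR lies 40 bases after the start in Bub1b, 30 bases after it in Cdca3 and 5 bases after it in Racgap1.
Bub1b, chr2:118597961-118598260, plus strand: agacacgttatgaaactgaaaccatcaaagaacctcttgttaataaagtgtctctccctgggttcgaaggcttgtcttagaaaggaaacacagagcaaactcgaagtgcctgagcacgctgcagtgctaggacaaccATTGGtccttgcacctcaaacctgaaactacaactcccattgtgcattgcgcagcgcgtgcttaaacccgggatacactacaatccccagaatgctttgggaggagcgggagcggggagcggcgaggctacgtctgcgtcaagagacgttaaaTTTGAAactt
Cdca3, chr6:124829926-124830225, plus strand: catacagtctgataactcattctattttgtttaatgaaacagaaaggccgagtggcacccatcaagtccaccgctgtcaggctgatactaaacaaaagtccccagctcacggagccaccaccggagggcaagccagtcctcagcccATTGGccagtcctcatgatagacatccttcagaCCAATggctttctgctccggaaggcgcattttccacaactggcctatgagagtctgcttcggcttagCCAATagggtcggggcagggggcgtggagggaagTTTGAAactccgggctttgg
Racgap1, chr15:99651607-99651906, minus strand: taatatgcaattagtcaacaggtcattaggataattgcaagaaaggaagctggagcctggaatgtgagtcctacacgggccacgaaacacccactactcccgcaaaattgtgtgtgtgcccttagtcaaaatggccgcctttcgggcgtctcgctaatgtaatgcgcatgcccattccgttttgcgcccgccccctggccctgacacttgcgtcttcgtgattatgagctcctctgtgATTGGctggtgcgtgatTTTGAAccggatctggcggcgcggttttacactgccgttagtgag

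Genes of DNA replication were the list with the next most called rises. Of the 50 tested members of the replication origin, helicase and fork list, 9 were called higher and 0 lower, with a median difference of 1.03 log2 units. Both G1TM libraries exceeded both G1DM libraries for all 50, against 28.4% of all genes. The median was 1.27 against G1DM replicate 1 and 0.77 against replicate 2, and the number called was 0 without replicate 1 and 16 without replicate 2. It was also 0 without either G1TM library and with only the 4 G1 libraries in the fit. Mcm6, a subunit of the replicative helicase, had 41.8 and 48.5 FPKM in G1TM and 12.5 and 20.9 FPKM in G1DM (1.42 ± 0.30 log2 units, adjusted p = 0.0346). Uhrf1, which recognises hemimethylated DNA behind the fork, had 49.6 and 57.2 FPKM in G1TM and 14.3 and 23.1 FPKM in G1DM (1.501 ± 0.34, adjusted p = 0.0452). Like every called gene, neither overlapped between the groups, and for each the lower of the wild-type values was that of replicate 1. Cdc45, a cofactor of the same helicase, had 9.05 and 9.84 FPKM in G1TM and 2.37 and 4.04 FPKM in G1DM. Pole, the catalytic subunit of the leading-strand polymerase, had 9.76 and 10.2 FPKM in G1TM and 2.85 and 4.65 FPKM in G1DM. The other called members were Dnmt1, Timeless, Pold3, Pola2 and Ticrr.

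The Mcm6 promoter is shown for its E2F cores, searched on both strands as TTGGCGC and also in the forms TTCGCGC and, differing further, TTCCCGC. It holds 5 matches, in 2 of the 3 capitalised stretches as an overlapping pair of opposite orientation. The nearest before the start lies 43 bases from it and another lies 24 bases after it. The sequence is RefSeq's for GRCm38.p6.
Mcm6, chr1:128359656-128359955, minus strand: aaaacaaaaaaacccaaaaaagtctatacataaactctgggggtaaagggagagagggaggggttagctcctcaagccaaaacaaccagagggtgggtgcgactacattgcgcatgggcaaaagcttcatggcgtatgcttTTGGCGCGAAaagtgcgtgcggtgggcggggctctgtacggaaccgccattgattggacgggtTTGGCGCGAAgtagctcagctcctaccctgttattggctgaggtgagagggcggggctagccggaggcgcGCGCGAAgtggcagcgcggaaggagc

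Regulators of the cycle gave 3 calls in all, each a rise, where 0.613% of all tested genes were called higher. Among 20 tested DREAM and MMB subunits and E2F factors, 1 was called higher and 0 lower (median difference 0.51 log2 units). That gene was Foxm1, the forkhead factor of the MMB complex, with 31.1 and 33.2 FPKM in G1TM and 9.36 and 16.8 FPKM in G1DM (1.29 ± 0.29, adjusted p = 0.0450). Mybl2, which encodes B-Myb, had 10.4 and 14.3 FPKM in G1TM and 2.12 and 5.21 FPKM in G1DM. Its difference of 1.59 ± 0.48 log2 units was larger than that of Foxm1, but it did not pass the test (adjusted p = 0.129). Among 27 cyclins, kinases and their inhibitors, 2 were called higher and 0 lower. They were Cdc25c, the phosphatase that activates the mitotic kinase, with 11.1 and 10.7 FPKM in G1TM and 3.93 and 6.07 FPKM in G1DM (adjusted p = 0.0378), and Cdkn2c, an inhibitor of the cyclin D-dependent kinases, with 8.09 and 9.04 FPKM in G1TM and 4.10 and 4.37 FPKM in G1DM (adjusted p = 0.045). The calls of Foxm1 and Cdc25c were lost without G1DM replicate 1 and without either G1TM library, and that of Cdkn2c without any 1 of the 4. Without G1DM replicate 2 the cyclin and kinase list had 7 calls.

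Repair of broken and cross-linked DNA was represented by 31 tested genes of homologous recombination and the Fanconi anaemia pathway (median difference 0.70 log2 units). Of these, 5 were called higher and 0 lower, where 0.613% of all tested genes were called higher. Eme1, partner of the nuclease Mus81, had 6.02 and 6.04 FPKM in G1TM and 1.67 and 2.76 FPKM in G1DM (1.15 ± 0.23, adjusted p = 0.0244). Fancd2 and Fanci, which form the clamp at the centre of the Fanconi pathway, had differences of 0.97 ± 0.21 and 0.98 ± 0.21 log2 units (adjusted p = 0.0341 and 0.0401). The groups did not overlap for any of these 3 genes, as for every called gene. The number called was 0 without G1DM replicate 1 or either G1TM library and 6 without G1DM replicate 2. None of the 16 tested genes of shelterin, the CST complex and the telomerase particle was called (median 0.21 log2 units), and Dkc1, dyskerin, had 19.8 and 20.5 FPKM in G1TM and 7.47 and 16.1 FPKM in G1DM.

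Among other genes linked to DNA synthesis, none of the 20 tested deoxynucleotide synthesis genes was called, although their median difference was 0.80 log2 units. Both G1TM libraries lay above both G1DM libraries for 18 of them, against 28.4% of all genes. Rrm2, the subunit of ribonucleotide reductase that limits its activity, had 60.9 and 73.0 FPKM in G1TM and 16.7 and 54.6 FPKM in G1DM, a range between the wild-type libraries wider than the gap to G1TM. None of the 28 chromatin architecture and lamina genes was called either (median 0.91 log2 units, 1.06 against G1DM replicate 1 and 0.62 against replicate 2). Without G1DM replicate 2, 3 members of the first list and 4 of the other were called, and without replicate 1 or either G1TM library none of either.

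Replication-dependent histone genes were called in both directions. Only 17 of 66 passed the filter, 2 were called higher and 2 lower, and the median difference was -0.69 log2 units. Hist1h2ao had 172 and 235 FPKM in G1TM and 18.5 and 39.0 FPKM in G1DM (2.85 ± 0.61, adjusted p = 0.0357), and Hist1h2ap had 18.7 and 21.1 FPKM in G1TM and 2.12 and 4.73 FPKM in G1DM (2.30 ± 0.38, adjusted p = 0.00918). On the lower side Hist1h2bc had 8.15 and 7.04 FPKM in G1TM and 20.6 and 35.1 FPKM in G1DM (-1.70 ± 0.36, adjusted p = 0.0367), a call lost without any 1 of the 4 libraries. The calls of Hist1h2ao and Hist1h2ap were lost without G1DM replicate 1 or either G1TM library. Hist1h4m was listed at 0 in both G1TM libraries and at 4.99 and 5.03 FPKM in G1DM, while the later DM libraries spanned 0.173 to 5.45 FPKM. Histone genes of a type are near-identical copies between which reads can be split, and their transcripts mostly lack the polyA tail used for selection, so the values of single copies are uncertain.

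The glycolysis and glucose uptake list gave 3 called rises. The list had 31 of its 32 symbols tested, as 32 entries because Aldoa is listed under 2 identifiers, with 0 called lower. Its median difference was 0.59 log2 units and was alike against either wild-type library, at 0.56 against G1DM replicate 1 and 0.65 against replicate 2. Pfkfb3, which makes the activator of phosphofructokinase, had 19.5 and 22.8 FPKM in G1TM and 4.28 and 5.91 FPKM in G1DM (1.87 ± 0.32, adjusted p = 0.0121). Egln3, a prolyl hydroxylase that acts on hypoxia-inducible factor and is itself induced by low oxygen, had 34.6 and 51.2 FPKM in G1TM and 11.7 and 10.7 FPKM in G1DM (1.82 ± 0.32, adjusted p = 0.0130). Hk2, a hexokinase, had 22.3 and 28.7 FPKM in G1TM and 6.09 and 14.0 FPKM in G1DM (1.35 ± 0.30, adjusted p = 0.0413). None of the 3 overlapped between the groups, as for every called gene. Outside the list, the mitochondrial adenylate kinase Ak4 had 15.0 and 20.2 FPKM in G1TM and 4.30 and 6.41 FPKM in G1DM (1.56 ± 0.29, adjusted p = 0.0191). Pfkfb3 and Ak4 were the only called rises in which a DM library of a later generation reached the G1TM level, with highest later values of 20.2 and 15.3 FPKM. The calls of Ak4 and of the glycolysis list were lost without G1DM replicate 1 and without either G1TM library, and the list had 3 calls without G1DM replicate 2.

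Over 26 tested genes of cholesterol synthesis and uptake the median difference was 0.49 log2 units. It was 0.27 against G1DM replicate 1 and 0.69 against replicate 2, the reverse of the order seen for mitosis. For 20 of the 26 both G1TM libraries lay above both G1DM libraries, an order that 28.4% of all genes had.

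Several receptors and secreted proteins were also among the rises. Gfra1, a receptor for GDNF, had 16.2 and 20.5 FPKM in G1TM and 5.79 and 4.62 FPKM in G1DM (1.64 ± 0.33, adjusted p = 0.0296). Stc2, the secreted glycoprotein stanniocalcin, had 13.54 and 20.9 FPKM in G1TM and 3.99 and 5.86 FPKM in G1DM (1.61 ± 0.35, adjusted p = 0.0401). Met, the receptor of hepatocyte growth factor, had 9.83 and 8.97 FPKM in G1TM and 3.20 and 3.97 FPKM in G1DM (1.18 ± 0.27, adjusted p = 0.0472). Flt1, a receptor of vascular endothelial growth factor, had 6.54 and 7.62 FPKM in G1TM and 2.42 and 2.37 FPKM in G1DM (1.25 ± 0.26, adjusted p = 0.0342). In each of the 4 genes the wild-type libraries were close to each other and both lay below G1TM. Flt1 was 1 of 2 tested genes in a list of 15 endothelial markers, and the list's summed level was 16.0 and 17.0 FPKM in G1TM and 24.8 and 21.0 FPKM in G1DM. The calls of Gfra1, Met and Flt1 were each lost without any 1 of the 4 G1 libraries, and that of Stc2 without G1DM replicate 1 or either G1TM library.

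**Figure D2:**
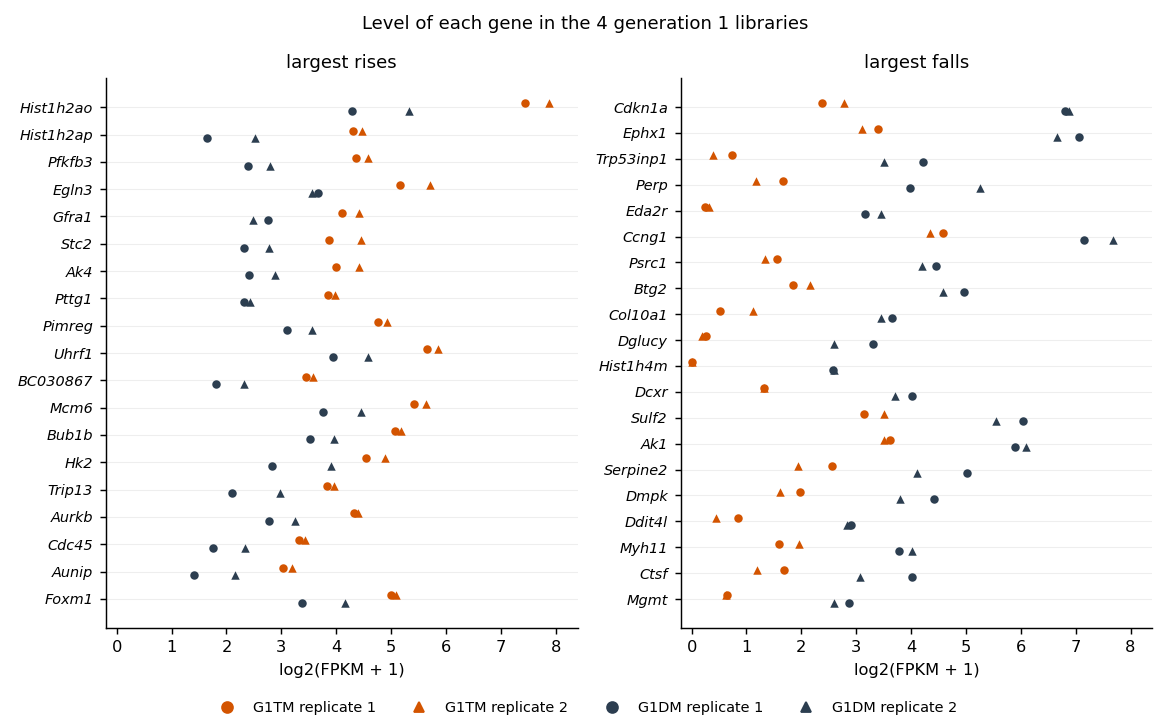
Level of 19 of the 20 largest called rises (left) and of the 20 largest called falls (right) (protein-coding, with 1 of the 2 group means at 5 FPKM or more), as log2(FPKM + 1) on the horizontal axis; orange marks are the 2 G1TM libraries and dark marks the 2 G1DM libraries, with a circle for replicate 1 and a triangle for replicate 2. Only genes whose groups did not overlap could be drawn, and for Perp and Serpine2 the 2 G1DM marks lie well apart.

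Among the falls outside the p53-activated list were genes of enzymes and inhibitors that act outside the cell. Sulf2, a sulfatase that edits heparan sulfate, had 7.81 and 10.4 FPKM in G1TM and 65.1 and 45.6 FPKM in G1DM, a fall of 2.47 ± 0.33 log2 units (adjusted p = 0.0023). Serpine2, an inhibitor of thrombin and plasminogen activators, had 4.86 and 2.81 FPKM in G1TM and 31.3 and 16.4 FPKM in G1DM (-2.32 ± 0.31, adjusted p = 0.0023). Mmp2, the gelatinase of the matrix, had 42.0 and 44.0 FPKM in G1TM and 212 and 97.0 FPKM in G1DM (-1.72 ± 0.31, adjusted p = 0.0150). In G1TM all 3 genes were below every DM library of the series, and of the G1DM libraries replicate 1 had the higher value in each. Serpine2 and Mmp2 were 2 of 24 tested matrix proteases and inhibitors, of which 0 were higher, and the list's median was -0.33 log2 units (-0.58 against G1DM replicate 1 and -0.17 against replicate 2). The call of Mmp2 was lost without G1DM replicate 1 or either G1TM library, and that of Serpine2 without G1TM replicate 2.

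Structural genes of the matrix were called at about the background share. Among 54 fibroblast matrix and collagen genes, 1 was called lower and 0 higher, where 1.02% of all genes were lower. The called gene was Fmod, fibromodulin, which organises collagen fibrils, with 5.85 and 4.56 FPKM in G1TM and 37.9 and 14.0 FPKM in G1DM (-1.97 ± 0.44, adjusted p = 0.0431), a call lost without G1DM replicate 1 or either G1TM library. The list's median was -0.34 log2 units, with -0.67 against G1DM replicate 1 and -0.02 against replicate 2, so it was close to 0 against one of the wild-type libraries. Col1a1 had 1044 and 1211 FPKM in G1TM and 2158 and 1265 FPKM in G1DM (adjusted p = 0.574). Col10a1, a collagen of hypertrophic cartilage, was the exception, with 0.434 and 1.17 FPKM in G1TM and 11.6 and 9.92 FPKM in G1DM (-2.73 ± 0.35, adjusted p = 0.00192). It was the only called gene among 9 tested cartilage and bone genes.

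Of 17 tested smooth muscle contractile genes, 2 were called lower and 0 higher (median -0.39 log2 units). Myh11, the smooth muscle myosin heavy chain, had 2.02 and 2.89 FPKM in G1TM and 12.7 and 15.3 FPKM in G1DM (-2.13 ± 0.38, adjusted p = 0.0154). Itga8, an integrin subunit, had 2.64 and 2.41 FPKM in G1TM and 6.75 and 8.93 FPKM in G1DM (-1.32 ± 0.21, adjusted p = 0.00857), but later DM libraries reached down to 2.55 FPKM. The remaining contractile genes did not pass the test. The call of Myh11 was lost without any 1 of the 4 G1 libraries and that of Itga8 without either G1TM library. Skeletal and cardiac muscle genes, of which 4 of 24 were tested and 0 called, had a median difference of -0.90 log2 units, with -0.27 against G1DM replicate 1 and -1.52 against replicate 2. Their summed level over the list was 32.7 and 61.4 FPKM in G1TM and 53.7 and 162 FPKM in G1DM, so that the sums overlapped. Acta1 made up most of each sum, with 26.8 and 55.9 FPKM in G1TM and 44.9 and 139 FPKM in G1DM. For 3 of the 4 tested genes both G1TM libraries lay below both G1DM libraries, against 22.2% of all genes.

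Signalling genes fell singly. Tgfb2, a ligand of the TGF-beta family, had 3.92 and 3.98 FPKM in G1TM and 12.5 and 18.9 FPKM in G1DM (-1.72 ± 0.28, adjusted p = 0.00891), and was the only called gene of 39 tested in the TGF-beta and BMP pathway. Epha4, an ephrin receptor, had 1.59 and 1.10 FPKM in G1TM and 4.23 and 3.72 FPKM in G1DM (-1.09 ± 0.23, adjusted p = 0.0377). Ahr, the aryl hydrocarbon receptor, had 6.57 and 4.25 FPKM in G1TM and 18.5 and 14.3 FPKM in G1DM (-1.46 ± 0.31, adjusted p = 0.0337). Ahr differed from the other 2 in that all 5 later DM libraries, at 3.43 to 4.97 FPKM, were below the higher of the G1TM values. Cryab, a small heat shock protein, had 20.6 and 25.5 FPKM in G1TM and 56.1 and 91.0 FPKM in G1DM (-1.60 ± 0.36, adjusted p = 0.0427), the only one of 26 heat shock and chaperonin genes to be called. The calls of Epha4 and Cryab were lost without any 1 of the 4 G1 libraries, that of Ahr without G1DM replicate 1 or either G1TM library, and that of Tgfb2 without either G1TM library.

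Among the 20 largest falls were metabolic and repair genes that belong to none of the other lists. Dcxr, a carbonyl reductase, had 1.511 and 1.4997 FPKM in G1TM and 15.2 and 12.1 FPKM in G1DM (-2.54 ± 0.37, adjusted p = 0.00445). Mgmt, which removes alkyl groups from guanine in DNA, had 0.569 and 0.546 FPKM in G1TM and 6.29 and 5.01 FPKM in G1DM (-2.09 ± 0.27, adjusted p = 0.00194). Ctsf, the lysosomal protease cathepsin F, had 2.21 and 1.30 FPKM in G1TM and 15.2 and 7.36 FPKM in G1DM (-2.10 ± 0.30, adjusted p = 0.00332). The G1TM values of these 3 genes were below all 7 DM libraries. Dmpk, the kinase whose gene is expanded in myotonic dystrophy, had 2.94 and 2.04 FPKM in G1TM and 20.4 and 12.9 FPKM in G1DM, and Ddit4l, an inhibitor of mTOR signalling, had 0.791 and 0.369 FPKM in G1TM and 6.48 and 6.13 FPKM in G1DM. The calls of Dcxr and Dmpk were lost without G1DM replicate 1 or either G1TM library, those of Ctsf and Ddit4l without G1TM replicate 2, and Mgmt was called whichever of the 4 was left out.

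**Figure D3:**
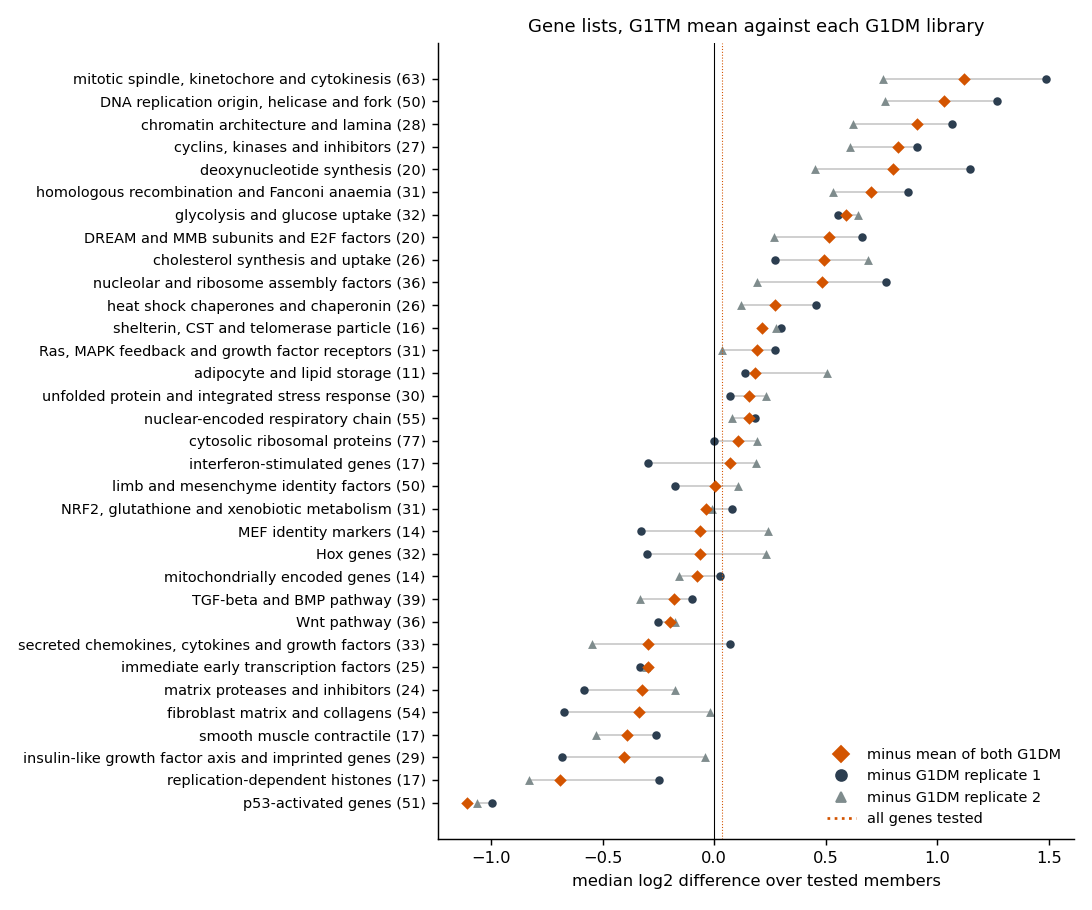
Median log2 difference over the tested members of each gene list (number of members in parentheses) on the horizontal axis, for lists with at least 10 tested members; orange diamonds set the G1TM mean against the mean of both G1DM libraries, dark circles against G1DM replicate 1 and grey triangles against G1DM replicate 2, and the dotted line is the median of all genes tested. Mitosis is at the top (median 1.12) with its 2 single-library values far apart, glycolysis has them close together, and p53-activated genes are at the bottom (median -1.11).

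Many other programmes held no call in either direction. Among those with over 10 tested members were shelterin (16 tested), adipocyte and lipid storage (11), unfolded protein and integrated stress response (30), interferon-stimulated genes (17 of 44 tested), secreted chemokines, cytokines and growth factors (33), the insulin-like growth factor axis and imprinted genes (29), the Wnt pathway (36), Hox genes (32) and limb and mesenchyme identity factors (50). Immediate early factors (25), cytosolic ribosomal proteins (77), nucleolar and ribosome assembly factors (36), mitochondrially encoded genes (14) and the nuclear-encoded respiratory chain (55) had none either. The medians of these 14 lists lay between -0.40 (imprinted genes) and 0.48 log2 units (nucleolar factors). The nucleolar median was 0.77 against G1DM replicate 1 and 0.19 against replicate 2. Ncl, nucleolin, had 96.2 and 81.0 FPKM in G1TM and 38.5 and 86.8 FPKM in G1DM, with the groups overlapping. The imprinted RNA H19 had 799 and 1084 FPKM in G1TM and 2193 and 691 FPKM in G1DM, so that its wild-type libraries lay on either side of G1TM.

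All 4 libraries carried the MEF identity markers, of which 14 of 14 were tested and 0 called. Their summed level was 3995 and 4451 FPKM in G1TM and 6344 and 4324 FPKM in G1DM. Of 20 macrophage and leukocyte markers 7 were tested and 0 called, with sums of 10.3 and 27.7 FPKM in G1TM and 10.5 and 25.4 FPKM in G1DM, so that the replicates differed more than the groups. Epithelial markers (4 tested of 12) summed to 23.8 and 46.2 FPKM in G1TM and 17.4 and 43.1 FPKM in G1DM, and neural and glial markers (4 of 18) to 90.6 and 116 FPKM in G1TM and 76.2 and 96.9 FPKM in G1DM. Erythroid markers, none of which was tested, summed to 0.360 and 0.193 FPKM in G1TM and 0.533 and 0.221 FPKM in G1DM. The part of other cell types in the changes above was not tested.

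Genes that do not code for protein gave 16 calls, 2 higher and 14 lower. They are the tested genes outside the 10658 protein-coding ones among 11908. Over all tested genes 0.613% were called higher and 1.02% lower. Ptprv, listed as a processed transcript in the mouse, had 0.183 and 0.173 FPKM in G1TM and 25.8 and 7.48 FPKM in G1DM (-3.68 ± 0.36, adjusted p = 0.000169). The long non-coding gene Gm42047 had 3.55 and 2.93 FPKM in G1TM and 66.2 and 30.2 FPKM in G1DM (-3.44 ± 0.46, adjusted p = 0.00215). Both were below all 7 DM libraries, but in both G1DM replicate 1 was well above replicate 2. The table does not say whether reads were counted by strand, so calls that lie over another gene are uncertain. AC167363.2, with 0.0394 and 0.0322 FPKM in G1TM and 4.24 and 1.97 FPKM in G1DM, lies inside Cdkn1a on the opposite strand. Gm42047 overlaps Gm20388, Gm3226 lies in Il31ra and Gm37416 in Malrd1. Mir496a overlaps Mirg, Mir7016 overlaps Tmem39b and Gm24430 overlaps Fbxo7. These short RNAs were at 0 FPKM in both G1TM libraries and passed the filter only through G1DM. There they had 1.62 and 1.63 (Mir496a), 2.37 and 1.79 (Mir7016) and 1.64 and 1.65 FPKM (Gm24430), which rest on few reads. Gpr137b-ps, a pseudogene with no overlapping neighbour listed, had 0.724 and 0.799 FPKM in G1TM and 5.98 and 5.21 FPKM in G1DM (-1.90 ± 0.24, adjusted p = 0.00179).

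Calls were also counted by position and by expression level. With chromosome 18 not tabulated, every other autosome and X held called genes, and the mitochondrial genome held none. The directions were uneven: chromosome 3 had 0 higher and 6 lower of 576 tested, chromosome 6 had 7 and 2 of 575. Medians over all tested genes of a chromosome ran from 0.00 (X) to 0.08 log2 units (chromosome 5). The mitochondrial genome had a median of -0.02. Such medians do not show where the called genes lie. Within 10 Mb of Trp53 on chromosome 11, 3 of 236 tested genes were called (1.27%), all higher, against 1.64% of all genes called and 0.613% called higher. All 3 lay within 5 Mb, where they were 3 of 101 tested genes (2.97%), and 1 of 55 within 1 Mb (1.82%). They were the mitotic genes Pimreg, Aurkb and Haspin. The share of genes called was 1.63% below a mean of 3 FPKM, 1.94% from 3 to 10, 1.58% from 10 to 30, 1.03% from 30 to 100 and 0.578% above 100 FPKM. Below 3 FPKM falls outnumbered rises by 41 to 10, while from 10 to 30 FPKM the numbers were 26 and 22.

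Promoter motifs were counted over the windows of 300 bases in the RefSeq table, which held 32851 promoters and matched 128 of the 195 called genes. A CHR (TTTGAA, either strand) was in 26.6% of the 64 promoters of called rises, 5.5% of the 109 promoters of called falls and 11.6% of the promoters of all tested genes. A gene can have several promoters here, and the 64 belonged to 52 genes and the 109 to 76. Counted by gene, the CHR shares were 30.8% for called rises, 7.89% for called falls and 13.7% for tested genes. In the mitotic list a CHR was in 65% of 60 promoters. CHR and CCAAT box together were in 20.3% of promoters of called rises, 0.917% of those of called falls and 4.63% of those of tested genes, and in 53.3% for the mitotic list. The E2F core was in 26.6% of promoters of called rises, 7.34% of those of called falls and 14.8% of those of tested genes, and in 60.8% of the 51 promoters of the replication list. The last bases of a reversed CCAAT box can also be the first of TTGGCGC. Over all 32851 promoters the shares were 17.9% for the CHR, 37.4% for the CCAAT box and 8.07% for the E2F core. A p53 element, with up to 2 mismatches in 20 bases, was in none of the 64 promoters of called rises, in 4 of the 109 of called falls (3.67%) and in 0.798% of all promoters. The genes with it were Ccng1, Cd80, Cdkn1a and Zfp365. These are matches of letters in a window around the start, and many p53 elements are known to lie outside such a window, within introns.

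The DM libraries of generations 3 and 5 took no part in the means of the comparison and are wild-type p53 cells of a different generation. Both G1TM libraries were above all 7 DM libraries for 71 of the 73 called rises and below all 7 for 112 of the 122 called falls. The G1TM and G1DM libraries had chosen these genes, so that only the order against the 5 later libraries was not fixed. Of the 3378 tested genes with both G1TM libraries above both G1DM libraries, 46.2% were also above the 5 later ones, and of the 2641 with the opposite order 49.4% were also below them. The called genes also have the wider gaps in G1, so the shares are not like for like. The exceptions among the falls were Ahr, Cpeb1, Gm24430, Gm3226, Gm37416, Itga8, Mir496a, Mir7016, Rgs5 and Robo2. Over the called rises the median level lay below G1TM by 1.38 log2 units in G1DM replicate 1 and by 0.92 in replicate 2. In the later DM libraries it lay below G1TM by 1.03 and 1.21 (G3DM) and by 1.02, 1.26 and 0.85 log2 units (G5DM). Over the called falls it lay above G1TM by 1.58 and 1.39 log2 units in G1DM, by 1.87 and 1.87 in G3DM and by 1.68, 1.61 and 1.42 in G5DM. These distances are measured from the G1TM mean that helped to choose the genes, and are given without a test. The later libraries also entered the shared estimate of the spread, though not the difference itself.

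**Figure D4:**
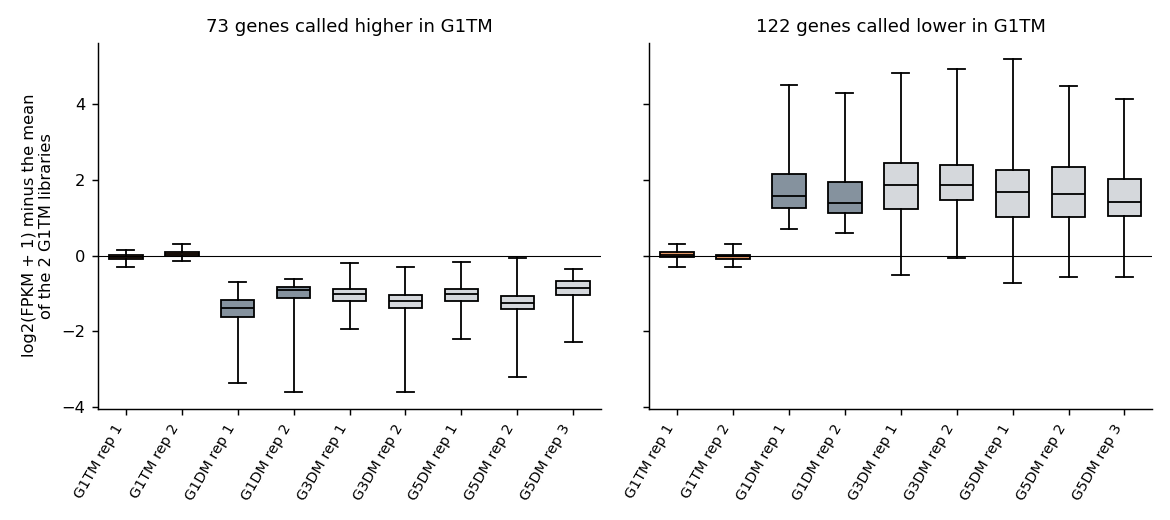
Level of the 73 genes called higher (left) and the 122 called lower (right) in each library, as log2(FPKM + 1) minus the mean of the 2 G1TM libraries; boxes span the quartiles with a line at the median, whiskers reach the lowest and highest gene, orange boxes are G1TM, dark grey G1DM, and light grey the DM libraries of generations 3 and 5. The G1TM and G1DM libraries were used to choose the genes and G1TM sets the zero line, so the distances carry that choice; the light grey medians lie between -1.26 and -0.85 on the left and between 1.42 and 1.87 on the right.

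Which single calls held when a library was removed differed between rises and falls. Leaving out each of the 4 G1 libraries in turn leaves a group with 1 library, which is assumed to vary like the other groups. In those fits 22 genes were called every time, 22 of them lower and 0 higher, and the same 22 were called when any of the 15 libraries of the series was left out. From the p53-activated list they were Cdkn1a, Ccng1, Ephx1, Psrc1, Eda2r, Btg2, Zmat3, Dglucy, Ak1, Fas and Tnfrsf10b. The others were Hist1h4m, Ptprv, Inka2, Exoc4, Gpr137b-ps, Dapk1, Col10a1, Mgmt, Gm42047, Sulf2 and Gm3226. Psrc1, a microtubule-associated protein, had 1.96 and 1.54 FPKM in G1TM and 20.9 and 17.3 FPKM in G1DM, and Eda2r, a receptor of the tumour necrosis factor family, had 0.189 and 0.240 FPKM in G1TM and 7.93 and 9.89 FPKM in G1DM (adjusted p = 2.25e-05 for both). Btg2, an antiproliferative protein, had 2.58 and 3.48 FPKM in G1TM and 30.1 and 23.0 FPKM in G1DM, and Ak1, a cytosolic adenylate kinase, had 11.2 and 10.3 FPKM in G1TM and 58.5 and 67.1 FPKM in G1DM. Among the rises, G1DM replicate 2 was the nearer wild-type library for 62 of 73 genes, a share to be read against 61.7% of all tested genes, and among the falls for 77 of 122.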

How the data were processed

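RNA sequencing values of 15 MEF libraries were read from 1 table of FPKM deposited by the authors. Per the submitters' processing notes, the tools included DESeq2 1.20.0, HISAT2 2.0.5, fastp and CASAVA 1.8, together with featureCounts 1.5.0-p3, and no role is stated for any; the genome build and the strand setting are not given in the sources used here. Listed coordinates matched GENCODE vM21 (GRCm38) for 98.3% of genes. FPKM times gene length gave whole reads within 0.05 for 100% of values. Genes with at least 1 FPKM in 2 of the 4 G1 libraries were kept. log2(FPKM + 1) was fitted with limma 3.58.1 (R 4.3.3, 6 group means, intensity trend, two-sided, Benjamini-Hochberg over all genes). The procedure was run on simulated data with independent noise and, for each gene, the same spread in every library. It therefore cannot show how the procedure behaves where libraries of a group lie as far apart as those of G1DM. A log2 difference on this scale understates the change of low genes. Tables and plots used Python 3.11.15, numpy 2.4.6, pandas 2.3.3 and matplotlib 3.10.9.

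The gene set, the lists and the tests were chosen with earlier results of these data known, so no list is independent evidence of its direction. The genes named are Trp53, Wrn, Terc, Cdkn1a, Mdm2, Ccng1, Foxm1 and Mybl2; the 20 largest rises and 20 largest falls called in protein-coding genes that reached 5 FPKM in either group's mean and whose groups did not overlap, sex-linked genes left out; up to 4 called members of each list; the 2 most abundant members of a list with no call; and up to 8 called non-coding genes. Some genes the rule names are not reported here. Others are said to be chosen after their values were seen, or are the full set of a stated count. The labels do not say whether replicate numbers pair the libraries. The deviations of same-numbered G1TM and G1DM libraries had r = 0.0418 over 11908 genes. With 2 libraries a group, this r cannot tell whether they were paired.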

Additional observations from a re-analysis of the deposited data

How the results depend on the processing

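With 2 libraries a group, depth was not measured as a limit apart from the spread between libraries. The count of 195 called genes (73 higher, 122 lower) was 94 (19 and 75) with only the 4 G1 libraries, 87 (18 and 69) with only the 9 libraries outside G3TM and G5TM, 600 (295 and 305) after quantile normalization, and 487 (239 and 248) with GC content and gene length trends removed, the last chosen after seeing the data. Called rises numbered 45 with no filter on low values, 127 with the length trend removed, 21 with a term for the sex of the embryo, and 27 with voom on the recovered reads of the 4 G1 libraries, also chosen after seeing the data. Leaving out each of the 15 libraries in turn gave 25 to 462 calls, of which 1 to 200 were higher and 24 to 262 lower. The low ends came without G1TM replicate 2 (25) and replicate 1 (31) and without G1DM replicate 1 (38), and the high end without G5DM replicate 1. The replicate number as a block gave 103 calls (19 higher, 84 lower) with 15 libraries and 306 (108 and 198) with the 4 G1 libraries. Whether same-numbered libraries share more than a number is not given. The cause of these differences was not tested. The count tests of edgeR and DESeq2 were not run, since a table of FPKM was not accepted as counts. Pseudocounts of 0.1 and 5, a minimum of 5 FPKM, a filter over the 15 libraries and voom on all 15 libraries kept the 3 counts within 1.5 times.

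No called gene picked by the naming rule above changed direction under any of the 30 alternatives. Called genes named outside that rule were not followed here. Genes that were not called and lay near 0 did. Under quantile normalization the difference was -0.084 for Lmna, -0.020 for Calr, -0.076 for Hoxb9, 0.18 for mt-Nd1 and 0.028 for Cd68. With the length trend removed it was -0.0019 for Lmna and -0.025 for Hoxb9, and with GC removed as well -0.050 for Hoxb9. With the sex term it was -0.00049 for Hmga1, -0.21 for Lmna, 0.042 for Grb10, 0.12 for Hoxa10, 0.083 for Prrx1 and 0.033 for mt-Nd1. With voom it was -0.016 for Lmna and -0.035 for Hoxb9 with 15 libraries, and -0.016 and -0.035 with 4. Over the fits without 1 library the ranges were -0.21 to 0.17 (Cd68), -0.97 to 0.42 (Ctgf), -0.026 to 0.13 (Ctnnb1), -0.68 to 0.19 (Cyr61), -0.37 to 0.23 (Grb10), -1.24 to 0.43 (H19), -0.19 to 0.89 (Hmga1), -0.35 to 0.24 (Hoxa10), -0.22 to 0.23 (Hoxb9), -0.31 to 0.25 (Klf6), -1.03 to 0.85 (Krt18), -0.14 to 0.18 (Lmna), -0.79 to 0.66 (Lyz2), -0.14 to 0.076 (Prrx1), -0.0053 to 0.32 (Rplp0), -0.33 to 0.14 (Rplp1) and -0.16 to 0.12 (mt-Nd1).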

Other observations

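Some of the widest gaps between G1TM and G1DM were in genes that the test did not call, and they were chosen here after their values were seen. Rps3a2, a processed pseudogene of the ribosomal protein gene Rps3a1, had 171 and 186 FPKM in G1TM and 5.44 and 3.64 FPKM in G1DM (adjusted p = 0.128). Rps3a3, another such pseudogene, had 87.1 and 92.5 FPKM in G1TM and 2.41 and 2.38 FPKM in G1DM (adjusted p = 0.171). Both were also high in G3TM replicate 3 (122 and 101 FPKM) and in G5TM replicates 1 and 2 (247 and 181 FPKM for Rps3a2, 236 and 143 FPKM for Rps3a3), and low in every other library, from 3.20 to 6.38 FPKM for Rps3a2 and from 1.68 to 3.97 FPKM for Rps3a3. Gm10020, also a processed pseudogene, had 0.404 and 0.550 FPKM in G1TM and 45.4 and 43.2 FPKM in G1DM (adjusted p = 0.0532). It was high in G3DM replicate 1 (68.7 FPKM) and in all 3 G5TM libraries (391, 234 and 406 FPKM), and between 0.0755 and 2.90 FPKM in the remaining ones. The parent gene Rps3a1 had 348 and 387 FPKM in G1TM and 589 and 557 FPKM in G1DM.

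Gapdh, often used to normalize expression, was not called and varied widely within each group. It had 14.8 and 55.1 FPKM in G1TM and 11.1 and 2.64 FPKM in G1DM (difference 2.16 ± 1.21 log2 units, SE, adjusted p = 0.507), and 2.56 to 130.2 FPKM in the libraries of the later generations. Reads of Gapdh can be shared with its many pseudogenes, and the counting rule for such reads is not given in the sources used here. Ldha had 616 and 795 FPKM in G1TM and 402 and 466 FPKM in G1DM, without overlap but not called (adjusted p = 0.497).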
